A study of Mus musculus with 12 samples.

Results

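The Obox genes code for homeodomain proteins made in the mouse female germ line, and 5 of the 24259 gene symbols in the expression table belong to the family as it was followed here, Obox1, Obox2, Obox3, Obox5 and Obox6, taken by symbol. Polysomal RNA and RNA of free ribonucleoprotein particles (RNP) were sequenced from germinal vesicle (GV) oocytes, which are arrested before meiotic maturation, of wild-type (WT) and Lsm14b-KO mice. Homozygous Lsm14b-KO females carried a knockout-first, reporter-tagged insertion in Lsm14b in every cell of the body, on the C57BL/6J background that they shared with WT, so the change was not limited to oocytes. Both genotypes were 3 weeks old and had been given 5 IU of pregnant mare serum gonadotropin 46 h before collection, and lysates of about 1500 oocytes were spun through sucrose with cycloheximide and cut into an RNP pool (fractions 1 to 10) and a polysome pool (fractions 11 to 28), with 3 libraries for each genotype and pool. WT RNP, WT polysome, KO RNP and KO polysome libraries were the only groups, and nothing in the labels ties the 3 libraries of a group to separate animals, so p-values measure the spread between libraries, which may be technical.

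As background, Obox transcripts are maternal: Obox1, Obox2, Obox5 and Obox7 are loaded into the growing oocyte, whereas Obox3 is chiefly switched on in the early embryo, and OBOX proteins bind DNA and take part in the activation of the embryonic genome. Much oocyte mRNA is stored untranslated in ribonucleoprotein particles until maturation or fertilization, and LSM14B is one of the RNA-binding proteins of such particles. Messages engaged by several ribosomes sediment into the heavy fractions, and unengaged messages stay in the light ones. The pair of pools thus stands only roughly for translated and stored copies of a message. Values are given as FPKM, fragments per kilobase of transcript, scaled by length and to the sequenced total of each library, so that levels of different genes can be set side by side but the total amount of RNA in a pool cannot be read from them. Fewer cells of a type and less RNA per cell cannot be told apart in such bulk samples.

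The 5 genes lie together on chromosome 7, in the GRCm38 build to which the reads had been aligned (mm10). By the RefSeq annotation Obox2 spans chr7:15388851-15398545 and Obox1 chr7:15547257-15556846, both on the forward strand, Obox3 spans chr7:15625306-15639777 on the reverse strand, Obox5 chr7:15750370-15759274 on the forward strand and Obox6 chr7:15833250-15839679 on the reverse strand. A sixth family gene, Obox7 at chr7:14659708-14665996, stands in the expression table under its older symbol Gm4745, which RefSeq lists as a synonym, and its values are given beside those of the 5. The GENCODE models are wider: that of Obox1 starts inside Obox2 (chr7:15388948-15556866) and that of Obox3, on the other strand, runs across Obox1 (chr7:15479825-15639902). GENCODE also annotates 48 Obox pseudogenes, 46 of them on chromosome 7.

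The upstream sequences are shown because the expressed members share long runs there, which show how close the copies are. Each line holds the 250 bases before the RefSeq start, read 5′ to 3′ on the strand of the gene, with capitals at the TATA-box letters TATATAA where the window holds them.
Obox1, chr7:15547007-15547256, forward strand: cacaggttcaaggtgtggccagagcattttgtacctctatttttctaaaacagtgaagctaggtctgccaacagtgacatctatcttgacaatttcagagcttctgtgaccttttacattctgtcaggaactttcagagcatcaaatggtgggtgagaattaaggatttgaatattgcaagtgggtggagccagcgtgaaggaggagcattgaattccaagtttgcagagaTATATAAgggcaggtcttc
Obox2, chr7:15388601-15388850, forward strand: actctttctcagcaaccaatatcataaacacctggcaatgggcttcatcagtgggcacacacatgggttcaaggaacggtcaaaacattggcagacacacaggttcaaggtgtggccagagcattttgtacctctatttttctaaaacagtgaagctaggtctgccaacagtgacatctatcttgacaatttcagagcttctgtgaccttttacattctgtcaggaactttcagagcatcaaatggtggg
Obox5, chr7:15750120-15750369, forward strand: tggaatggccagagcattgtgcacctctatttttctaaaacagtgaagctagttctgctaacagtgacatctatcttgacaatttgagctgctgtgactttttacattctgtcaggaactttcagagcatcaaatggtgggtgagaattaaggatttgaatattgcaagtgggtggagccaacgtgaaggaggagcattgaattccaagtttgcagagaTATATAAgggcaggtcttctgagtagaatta
The window of Obox1 and that of Obox2 shared a run of 153 bases, offset against each other, and the windows of Obox1 and Obox5 were identical at 226 of 233 aligned bases (97.0%). TATATAA began 19 bases before the RefSeq start of Obox1, 31 before that of Obox5 and 30 before that of Obox3. It was found on either strand in 3.04% of 32851 mouse promoter windows of this length. The windows of Obox2 and Obox7 did not hold it, but both ended too early to show its absence. That of Obox7 stopped inside the matching letters, at gcagagatatat. That of Obox2 stopped at the end of the run shared with Obox1, upstream of the letters in Obox1. The bases that follow in Obox2 and Obox7 were not examined. The 3 DNA elements of NOBOX were searched on both strands because Nobox is named with the results. TAATTG was in 7.17% of all windows, the variant TAGTTG in 5.69% and the variant TAATTA in 4.84%. None of the 3 was in the 5 family windows, those of Obox1, Obox2, Obox3, Obox5 and Obox7, and no window of Obox6 was used here.

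The transcripts of the family were also alike. The longest coding transcript of Obox1 (1512 bases, 4 exons) and that of Obox2 (1459 bases, 4 exons) were identical at 1447 of 1459 aligned bases (99.2%), and 31.4% of the 150-base windows of Obox1 and 32.7% of those of Obox2 occurred unchanged in the other. A read of 150 bases from such a window cannot be placed in 1 of the pair, so the split of FPKM between Obox1 and Obox2 is uncertain, whereas their sum depends little on that split. Obox5, Obox3 and Obox7 shared no 150-base window with any other member, at 91.7% to 95.3% identity, and neither did Obox6, at 78.4% to 79.5%. Only coding transcripts of these genes were searched, so windows shared with the Obox pseudogenes are not known. The sequences below show what a single base can decide. They are the 60-base stretches listed under Obox3 and under Obox2 in the study's oocyte LACE-Seq set (a method that sequences the ends of cDNA stopped at a bound protein, here LSM14B), with capitals at the base that differs within their 57-base overlap.
Listed under Obox3: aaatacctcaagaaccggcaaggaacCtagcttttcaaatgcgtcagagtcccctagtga
Listed under Obox2: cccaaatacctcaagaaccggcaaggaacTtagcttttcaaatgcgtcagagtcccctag
The first, although listed under Obox3, occurred in a transcript of Obox1 and of no other member, and the second in a transcript of Obox2 and of no other, both in the coding sequence. Of 10 stretches read under Obox3, 9 matched a transcript of Obox1 exactly and 2 matched one of Obox3, among them ctgcaaaaacattttgatga, which is in the coding sequence of Obox1, Obox2, Obox3, Obox5 and Obox7 alike. Of 8 read under Obox2, 5 matched a transcript of Obox2 and 3 one of Obox1. Only stretches and their matches are given, since the list was read here in part.

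The targeted gene followed the labels. Among RNP libraries Lsm14b was at 34.6, 29.3 and 27.4 FPKM in WT and at 0.893, 0.0627 and 0 in KO. Among polysome libraries it was at 11.3, 15.3 and 13.2 FPKM in WT and at 0.26, 0 and 0.0876 in KO. The steps of the lowest FPKM values put the libraries at about 4840000 to 7970000 fragments, and 10566 to 12720 genes were above 0 in each. Of 12 oocyte markers, 11 were well above 1 FPKM in every library (the exception, Oog1, was under 1 FPKM in all KO libraries), with Gdf9 at the head of the list in each group. The summed FPKM of 13 granulosa and cumulus markers was 31.3 to 37.0 in WT RNP, 42.7 to 65.3 in KO RNP, 27.9 to 76.3 in WT polysome and 81.2 to 103 in KO polysome libraries. Cyp19a1 had the highest mean in WT RNP (23.0 FPKM), WT polysome (37.7) and KO RNP (30.9) libraries, and Inha in KO polysome libraries (43.4). Under 1 FPKM throughout were 8 of the 13 in either WT group, 6 in KO RNP and 5 in KO polysome libraries. Ptx3 and Tnfaip6 were at 0 in all 12 libraries. Markers of theca and stroma summed to at most 1.36 FPKM, and 8 markers of immune, endothelial and red blood cells to 13.9 to 41.0 FPKM, most of it Pecam1, with Ptprc, Adgre1, Hbb-bs and Hba-a1 at 0 in all 12. Replicate 2 of the KO polysome libraries stood apart by 1 short RNA, Mir300 at 170809 FPKM, and the 10 most abundant genes took 34.7% of its FPKM against 11.6% to 14.7% in the other 11.

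Only 3 of the 5 genes were found above 1 FPKM, and these were among the most abundant messages of the oocyte. In WT RNP libraries Obox2 ranked 15th to 17th of all genes, Obox1 20th to 24th and Obox5 25th to 28th, and in WT polysome libraries they ranked 44th to 48th, 47th to 59th and 62nd to 67th. Obox1, Obox2 and Obox5 together made 1.11% to 1.19% of all FPKM in WT RNP, 0.926% to 1.05% in KO RNP, 0.635% to 0.67% in WT polysome and 0.344% to 0.467% in KO polysome libraries. The lowest share was that of KO polysome replicate 2, in which Mir300 enlarged the total. Each of the 3 rested on 4789 fragments or more in every library by the estimate above.

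Obox3, which is best known from the early embryo, was listed at 0 in 8 of the 12 libraries. It reached 0.107 FPKM in WT RNP replicate 2, 0.113 in WT polysome replicate 2, and 0.142 and 0.151 in KO polysome replicates 2 and 3, all below the 0.212 to 0.348 FPKM that 3 fragments would have given. Obox6, the most divergent of the 5 in sequence, was listed at 0 in all 12 libraries, where 3 fragments would have given 0.329 to 0.542 FPKM. Neither gene reached the 1 FPKM in at least 3 libraries that was asked of a gene before testing, and no fold is given for them. The values of Obox3 cannot be told from 0 at this depth, and they also depend on how reads shared with its paralogs were assigned, which was not tested.

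Obox2 was the most abundant member in the RNP pool. Its RNP level was 2207, 2183 and 2078 FPKM in WT and 1776, 1799.65 and 1613 in KO, so that every KO library lay below every WT library. In the polysome pool it was at 1208, 1116 and 1192 FPKM in WT and at 657, 742 and 805 in KO, again without overlap. Obox2 stood at 80.2% of its WT mean in the KO RNP pool and at 62.7% in the KO polysome pool.

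Obox1, its close copy, followed the same order of groups. It was at 1669, 1689 and 1603 FPKM in WT RNP and 1445, 1559.97 and 1381 in KO RNP libraries, which did not overlap. In the polysome pool the WT libraries held 999, 1148 and 1037 FPKM and the KO libraries 599.6, 797 and 793. The KO mean was 88.4% of the WT mean for RNP and 68.8% for polysome libraries, and replicate 1 of KO polysomes held the lowest of the 12 values. The summed FPKM of Obox1 and Obox2, which depends little on how their shared reads were split, was 3681 to 3876 in WT RNP against 2994 to 3359.62 in KO RNP libraries, and 2207 to 2263 in WT against 1257 to 1599 in KO polysome libraries, with no overlap in either pool. Lack of overlap is only a description here, above and below, because its share over all genes was not counted.

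Obox5 differed from both. Its RNP libraries held 1308, 1440.11 and 1272 FPKM in WT and 1428, 1494 and 1329 in KO, with the groups overlapping. Its polysome libraries held 939, 872 and 872 FPKM in WT and 682, 863 and 917 in KO, and here too the groups overlapped. The means of KO stood at 106% of WT for RNP and 91.7% for polysome libraries. The plot of levels by library shows the 3 genes side by side.

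**Figure D1:**
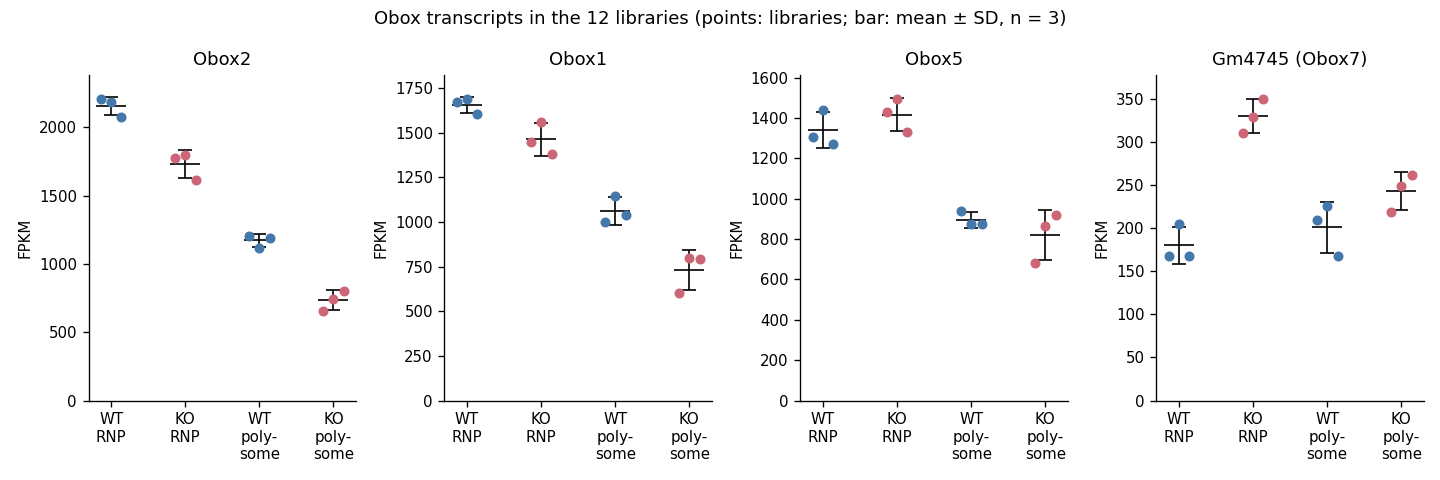
FPKM of Obox2, Obox1, Obox5 and Gm4745 (Obox7) on the y axis, each panel from 0, in WT (blue) and KO (red) libraries of the RNP and polysome pools; points are libraries and bars the mean and SD of 3. Obox2 and Obox1 step down from WT RNP to KO polysome, Obox5 differs between the pools with WT and KO overlapping in both, and Gm4745 is highest in the KO RNP libraries.

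Obox7, listed as Gm4745, was the least abundant expressed copy and went the other way. Its RNP level was 168, 205 and 168 FPKM in WT and 311, 328.5 and 349.9 in KO, 1.83 times the WT mean and without overlap. In the polysome pool it was at 209, 226 and 168 FPKM in WT and 219, 249 and 262 in KO, where the groups overlapped.

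The first comparison asked how polysomal messages differed between Lsm14b-KO and WT oocytes. Of the 3 members that could be tested, 2 fell in KO polysomes and none rose, where 10.4% of 9536 genes tested passed the threshold (4.73% lower and 5.64% higher). Obox1 and Obox2 share reads, as described above, so their calls here and below are not separate pieces of evidence. Obox2 fell by 0.68 on the log2 scale of FPKM + 1 (SE 0.104, adjusted p = 0.007, limma with Benjamini-Hochberg adjustment over all genes) and Obox1 fell by 0.55 (SE 0.131, adjusted p = 0.0328). Obox5 had a log2 change of -0.14 (SE 0.124, adjusted p = 0.54), with a 95% interval from -0.42 to 0.15. The median over the 3 members was -0.55, beside 0.10 over all genes tested. The call of Obox1 was lost whichever of the 6 libraries was left out (adjusted p = 0.0528 to 0.0793), although its log2 change stayed between -0.62 and -0.41, and that of Obox2 was kept in all 6. Both calls were lost without the intensity trend in the variance (adjusted p = 0.211 for Obox1 and 0.12 for Obox2), and that of Obox1 also with no filter on low values (adjusted p = 0.094). The summed granulosa and cumulus markers were also higher in KO than in WT polysome libraries, as given above, and their part in these values was not tested.

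In the RNP pool the estimates of the same genotype contrast were nearer to 0. Obox2 fell by 0.32 (SE 0.0606, adjusted p = 0.0064), and Obox1 had a log2 change of -0.18 (SE 0.0623, adjusted p = 0.0729) and Obox5 one of 0.08 (SE 0.0707, adjusted p = 0.466). Thus 1 of 3 tested members passed, where 20.7% of 9931 genes did (10.2% lower and 10.5% higher), a share of the members that is not far from the background. The median change was -0.18 over the members and 0.05 over all genes. Quantile normalization turned the sign of Obox5, to -0.12 (adjusted p = 0.186), and brought Obox1 past the threshold (adjusted p = 0.018), and without the trend Obox2 did not pass (adjusted p = 0.217). Gm4745 (Obox7) rose by 0.88 (SE 0.106, adjusted p = 0.000746) in this pool and had a log2 change of 0.28 (SE 0.149, adjusted p = 0.273) in the polysome pool.

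The pools were then compared within each genotype, which shows whether a message was enriched in the polysome or the RNP pool relative to the other genes of each library, and not how its copies were divided. In WT, 3 of 3 tested members were lower in the polysome than in the RNP pool, where 6.72% of 9574 genes were lower and 14.7% passed in either direction. Obox2 fell by 0.88 (SE 0.0745, adjusted p = 0.000205), Obox1 by 0.64 (SE 0.083, adjusted p = 0.00165) and Obox5 by 0.58 (SE 0.0859, adjusted p = 0.00312). Their polysome means were 54.3%, 64.2% and 66.8% of their RNP means. Without the intensity trend none of the 3 passed in WT (adjusted p = 0.0541 for Obox2, 0.112 for Obox1 and 0.137 for Obox5). Gm4745 (Obox7) differed from this, with 1.12 times as much FPKM in the polysome as in the RNP pool of WT, overlapping libraries and a log2 change of 0.16 (SE 0.156, adjusted p = 0.557).

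In KO the estimates for the 3 members were larger (their difference from WT is tested in the next comparison). Obox2 fell by 1.24 (SE 0.0904, adjusted p = 2.05e-05), Obox1 by 1.01 (SE 0.115, adjusted p = 0.000238) and Obox5 by 0.80 (SE 0.112, adjusted p = 0.000776), where 13.8% of 9851 genes were lower and 29.2% passed in either direction. The polysome means were 42.5%, 49.9% and 57.9% of the RNP means. Gm4745 (Obox7) fell by 0.44 (SE 0.101, adjusted p = 0.0106), to 73.8%. These calls of Obox1, Obox2 and Obox5 held under each of the 14 alternatives run, and that of Gm4745 was lost without the trend (adjusted p = 0.0996).

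Whether this relative enrichment differed between genotypes was tested by the interaction of genotype and pool, which shares its libraries with the comparisons above. No member passed, where 26 of 10949 genes did (0.237%). The interaction was -0.36 for Obox2 (SE 0.114, unadjusted p = 0.00783, adjusted p = 0.243), -0.37 for Obox1 (SE 0.147, unadjusted p = 0.0253, adjusted p = 0.356) and -0.22 for Obox5 (SE 0.144, unadjusted p = 0.158, adjusted p = 0.624), all from limma. The 95% intervals, -0.60 to -0.11, -0.69 to -0.05 and -0.53 to 0.10, all ended above -1, the value of a ratio cut to 1 part in 2. For Gm4745 (Obox7) it was -0.60 (SE 0.185, adjusted p = 0.233). A difference between the genotypes in this enrichment was thus not shown for any single member at this number of libraries.

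**Figure D2:**
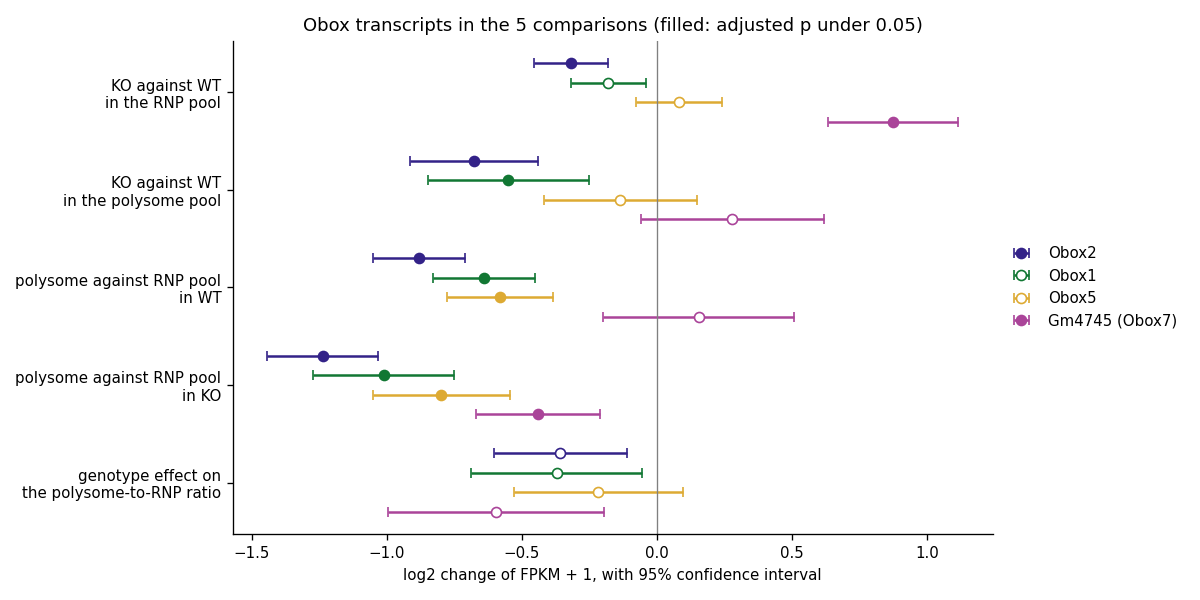
Log2 change of FPKM + 1 on the x axis with its 95% confidence interval, for Obox2, Obox1, Obox5 and Gm4745 (Obox7) in the 5 comparisons; filled points passed an adjusted p of 0.05. Obox2 is to the left of Obox5 in every comparison, and no point of the genotype effect on the polysome-to-RNP ratio is filled.

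Exact permutation tests of the mean FPKM, two-sided, gave p = 0.1 for Obox1 and Obox2 in all 4 comparisons of groups, the smallest value that 3 libraries against 3 allow. For Obox5 the exact p was 0.4 for KO against WT in the polysome pool and 0.3 in the RNP pool, and 0.1 for either comparison of pools.

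The makeup of the Obox message pool differed between the groups. In WT RNP libraries the order was Obox2, Obox1, Obox5, at 41.9% ± 0.742, 32.1% ± 0.293 and 26.0% ± 0.981 of the FPKM of the 3 (SD, n = 3), with no overlap between neighbours. In KO RNP libraries the shares were 37.5% ± 0.598, 31.7% ± 0.562 and 30.7% ± 0.0396, the FPKM of Obox1 and Obox5 overlapped, and their ratio within a library was 1.01 to 1.04. In WT polysome libraries they were 37.5% ± 1.63, 33.9% ± 2.46 and 28.6% ± 1.10, with Obox2 and Obox1 overlapping. In KO polysome libraries Obox5 held the largest share, 35.9% ± 0.646, with Obox2 at 32.3% ± 1.52 and Obox1 at 31.9% ± 1.17, which overlapped each other; in FPKM all 3 overlapped there. Within a library the ratio of Obox2 to Obox5 was 1.52 to 1.69 in WT RNP, 1.20 to 1.24 in KO RNP, 1.28 to 1.37 in WT polysome and 0.86 to 0.964 in KO polysome libraries. Being taken inside a library, this ratio is not changed by a scaling factor per library. It is changed by quantile normalization, under which the log2 change of KO against WT among RNP libraries was -0.26 for Obox2 and -0.12 for Obox5, in place of -0.32 and 0.08. The ratio of Obox2 to Obox1, the pair whose reads are hard to tell apart, was 1.29 to 1.32, 1.15 to 1.23, 0.972 to 1.21 and 0.93 to 1.10 in the same order of groups. These ratios are given as a description, with no test.

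**Figure D3:**
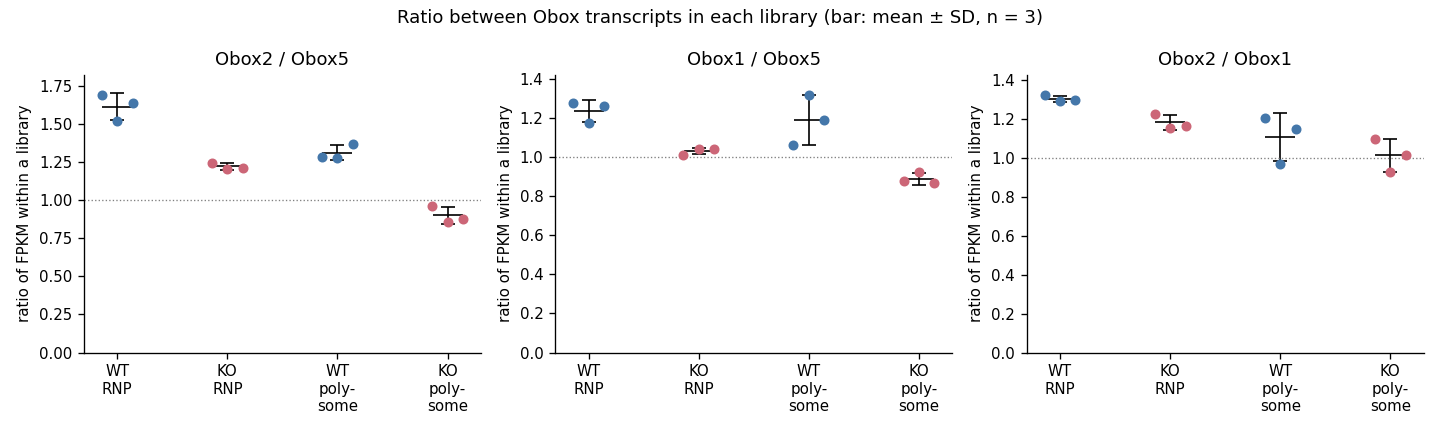
Ratio of FPKM between 2 Obox genes within a library on the y axis, for WT (blue) and KO (red) libraries of each pool; points are libraries, bars the mean and SD of 3, and the dotted line marks equal FPKM. Obox2 to Obox5 stands at 1.28 or above in the 6 WT libraries and below 1 in the 3 KO polysome libraries.

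Over the 12 libraries, log2(FPKM + 1) of Obox1 and Obox2 had a Pearson r of 0.982, of Obox1 and Obox5 0.92 and of Obox2 and Obox5 0.908, while Gm4745 (Obox7) had -0.0131 with Obox1, -0.0918 with Obox2 and 0.276 with Obox5. Among 6675 other genes, the 3 most like Obox2 were Tcl1 (r = 0.994), an AKT co-activator of the oocyte and early embryo, H3f3b (0.986), which codes for the histone variant H3.3, and Fkbpl (0.982). Those most like Obox1 were H3f3b (0.979), Eif2b4 (0.973), which codes for a subunit of the exchange factor of translation initiation, and the Polycomb gene Phc2 (0.972). Those most like Obox5 were Wtap (0.978), part of the mRNA methylation complex, Rfpl4 (0.968) and Trim13 (0.966). Tcl1 was at 4852 ± 210 FPKM in WT RNP, 3720.41 ± 102 in KO RNP, 2266 ± 141 in WT polysome and 1438 ± 103 in KO polysome libraries (SD, n = 3), the same order of groups as Obox2. The 12 points share 4 groups and their pools, so these values describe likeness of pattern over the groups. Obox1 and Obox2 also share reads, and how far that raises their r was not tested.

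Other homeobox genes of the germ line served as a group for comparison. Of 24 genes of germ-cell and early-embryo homeobox factors other than the 5 members, 18 were in the table and 6 could be tested. In the RNP pool 4 of the 6 rose in KO and none fell, where 10.5% of all genes tested rose, and 1 of the 4 was Gm4745 (Obox7). In the polysome pool 2 rose and none fell, where 5.64% of all genes rose. The median changes were 0.57 and 0.39 in the RNP and polysome pools, beside 0.05 and 0.10 over all genes. The RNP level of Nobox, an oocyte homeobox regulator of folliculogenesis, was 309, 343 and 349.991 FPKM in WT and 1567, 1493 and 1415 in KO. It was at 403, 353 and 371 FPKM in WT polysome and 1084, 1084 and 1173 in KO polysome libraries, a rise of 2.16 (adjusted p = 1.56e-06) among RNP libraries and of 1.57 (adjusted p = 0.000334) among polysome libraries. Lhx8, another oocyte factor, rose by 0.55 (adjusted p = 0.0107) and 0.66 (adjusted p = 0.0338). Pou5f1, the pluripotency factor, rose by 0.59 in the RNP pool (adjusted p = 0.0177) and had a log2 change of 0.06 (adjusted p = 0.923) in the polysome pool. Gm4745 (Obox7) rose in the RNP pool by 0.88, as given above. The calls of Nobox in both pools and of Gm4745 in the RNP pool held under each of 14 alternatives, whereas those of Lhx8 were lost under 6 (polysome) and 2 (RNP) and that of Pou5f1 under 3, single libraries left out among them. Among the 3 Obox members and these 6 genes, Obox1 and Obox2 were the ones that passed the test in the downward direction in KO polysomes.

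**Figure D4:**
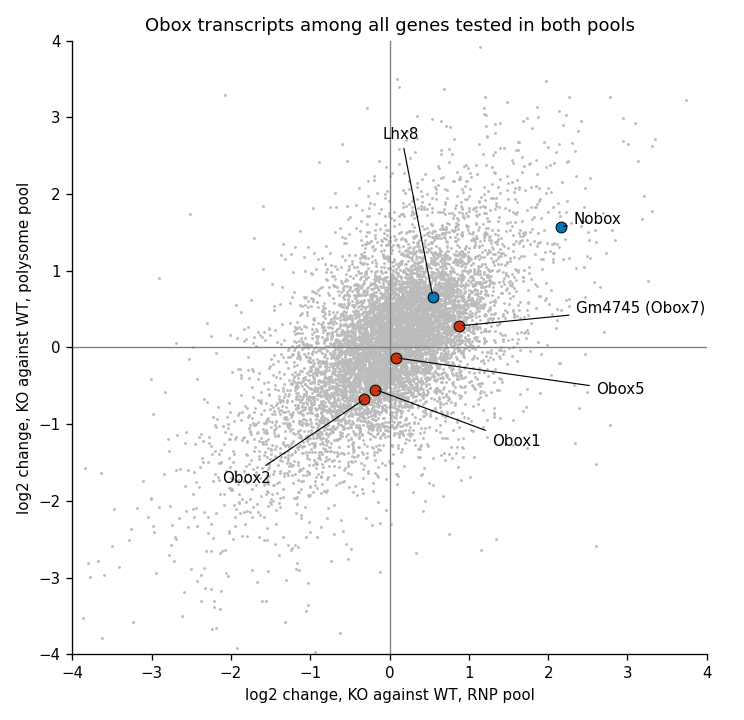
Log2 change of KO against WT in the RNP pool (x axis) and in the polysome pool (y axis) for the 9100 genes tested in both (grey; 12 lie outside the axes), with the Obox genes in red and Nobox and Lhx8 in blue. Obox1 and Obox2 lie lower on the y axis than on the x axis, Obox5 lies near 0 on both, and Nobox lies far to the upper right.

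Of 37 homeobox genes expressed in many tissues, 7 had a mean of 10 FPKM or more. Over the 20 tested in the polysome pool and the 19 tested in the RNP pool, the median changes were 0.02 and -0.03, beside 0.10 and 0.05 over all genes. Meis2 was the TALE-class homeobox gene that was most abundant among these. In the RNP pool it rose by 0.27 (adjusted p = 0.0467, lost under 9 of 14 alternatives), from 343 ± 20.3 to 412 ± 16.4 FPKM. In the polysome pool its log2 change was -0.26 (adjusted p = 0.2755), in the other direction. Tshz2 fell by 0.94 in the RNP pool (adjusted p = 0.00598), from 33.3 ± 1.96 to 16.9 ± 1.43 FPKM. Its log2 change in the polysome pool was -0.51 (adjusted p = 0.4478). Hdx was at 0 in the 3 WT polysome libraries and at 2.00, 4.04 and 7.62 FPKM in KO, and Pknox2 was at 3.80, 2.58 and 1.78 FPKM in WT RNP and at most 0.0449 in KO RNP libraries. Both genes passed the filter on low values only through the group in which they were high, so these levels are given with no test. Hdx nevertheless entered the polysome median above, and Pknox2 the RNP median.

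Genes of the 2-cell embryo, the stage at which OBOX proteins are known to act, were mostly at low levels. Of 23, 21 were in the table, 3 had a mean of 10 FPKM or more and 5 could be tested. In the RNP pool Zscan4d rose by 1.23 (adjusted p = 0.0402, lost under 8 of 14 alternatives), from 3.94, 3.75 and 10.4 to 13.6, 14.8 and 14.1 FPKM. Its log2 change in the polysome pool went the other way, at -0.94 (adjusted p = 0.504). Zscan4c was at 0 in the 3 WT polysome libraries and at 1.69, 3.09 and 3.48 FPKM in KO, and since it passed the filter on low values only through the KO libraries, no test of it is given. The near-identical Zscan4 copies share reads, so the assignment to 1 copy is uncertain. The median change of the 5 was 0.11 in the polysome and -0.19 in the RNP pool, beside 0.10 and 0.05 over all genes. Zscan4c is among the 5, so the polysome median includes a gene that passed the filter only through the KO libraries.

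The genes that border the cluster did not reach the level of Obox1, Obox2 and Obox5. Before Obox2 stand Nlrp5-ps, which reached at most 1.96 FPKM, Vmn1r90, at 0 in all libraries, and Gm4745 (Obox7). After Obox6 stand Crx and Crxos, a homeobox pair of the eye and early embryo, both at 0 in all libraries, and Sepw1, which codes for a selenoprotein. Sepw1 was at 218, 169 and 133 FPKM in WT RNP and 255, 228 and 287 in KO RNP libraries, and at 96.1, 83.1 and 119 in WT and 99.8, 64.9 and 72.7 in KO polysome libraries. It rose by 0.58 (adjusted p = 0.0395, lost under 10 of 14 alternatives) in the RNP pool and had a log2 change of -0.33 (adjusted p = 0.361) in the polysome pool.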

How the data were processed

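RNA of RNP and polysome pools had been amplified by the Smart-seq2 procedure, aligned to mm10 with TopHat2 2.0.13 and quantified with Cufflinks 2.2.1 and Cuffdiff, per the labels. The deposited values are FPKM per gene symbol, normalized by the authors, 1 column per library; the gene annotation is not given in the sources used here. Columns of the authors' own comparisons (fold changes, p- and q-values) were not used. The labels give the upper sucrose bound as 50% and the design text as 55%, and the library kits named also differ.

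Here log2(FPKM + 1) was fitted with limma 3.58.1 (R 4.3.3) with an intensity trend, on genes with at least 1 FPKM in at least 3 libraries of a fit, with Benjamini-Hochberg adjustment over all of them and a threshold of 0.05. The test was checked on simulated data: for KO against WT polysomes of 200 altered genes, 20 passed when the log2 difference was set to 1 and 114 when it was 2, and none passed in data without differences. Of the unaltered genes, 2 passed at a difference of 1 and 8 at a difference of 2. The altered genes were drawn from all tested genes, whatever their level. FPKM are not counts, so no count model was run; fragment numbers were estimated from the steps of low FPKM in 2801 genes with 1 GENCODE transcript, with 200 bases taken off each length, and are approximate. Promoters and gene positions come from RefSeq (GRCm38.p6), transcripts from GENCODE M21, and bound stretches from the study's list; 5 of 6 family genes had a promoter. Named genes were the members, Lsm14b, listed genes past the threshold in a KO comparison (up to 4 in each direction), the 3 genes most correlated with each member, and the neighbours on the chromosome. Members and lists were chosen with earlier results of these data known. One result among the broadly expressed homeobox genes is not reported here.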

Additional observations from a re-analysis of the deposited data

How the results depend on the processing

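With the trend left out of the variance, the number of tested members called went from 2 to 0 for KO against WT in the polysome pool, from 1 to 0 in the RNP pool and from 3 to 0 for polysome against RNP in WT, while it stayed at 3 in KO. With no filter on low values 1 member was called in the polysome pool, and with quantile normalization 2 were in the RNP pool, where that setting also gave Obox5 a log2 change of -0.12. Leaving out 1 library at a time gave 1 member in the polysome pool each time (lowest and highest 1), because Obox1 was lost, and changed no other count of members. A pseudocount of 0.1 or 5, a filter at 5 FPKM and median rescaling changed no count of members.

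Over all genes, calls in the polysome pool went from 989 to 545 with no filter, 508 without the trend and 383 to 522 with 1 KO library left out. In the RNP pool they went from 2057 to 1255 to 1298 with 1 KO library left out. For polysome against RNP in WT they went from 1406 to 728 without the trend and 780 to 786 with 1 WT RNP library left out. For the genotype effect on the polysome-to-RNP ratio they went from 26 to 6 without the trend and 0 to 46 with 1 library left out.

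Libraries that share a replicate number did not deviate together (correlations of their deviations -0.0207 to 0.0255 over the 4 comparisons of groups). The labels tie them only by that number, and these correlations cannot settle whether the pools of a replicate came from the same lysate. With the replicate number as a block the members called were 2, 1, 0, 3 and 3 in the order polysome, RNP, ratio, WT pools and KO pools, as without it. Over all genes the block gave 672, 1799, 11, 1165 and 2720 calls, and a block within genotype gave 0 for the ratio, where it called no member. Depth limits Obox3 and Obox6, and the near-identity of Obox1 and Obox2 limits how their FPKM can be told apart.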
